A study of Mus musculus with 21 samples.

Results

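The 10 genes described here are known from the oocyte: Zp2, Zp3, Gdf9, Nobox, Padi6, Dppa3, Nlrp14, Btg4, Kpna2 and Rnf114. They were chosen by name, with earlier results of these data known. Their probes are those whose single gene symbol in the platform annotation is one of these names. That gave 17 of the 16128 probes on the array, with 3 probes each for Btg4 and Gdf9, 2 each for Nlrp14, Zp2 and Kpna2, and 1 each for Padi6, Nobox, Dppa3, Zp3 and Rnf114. All 10 genes had a value on at least 15 of the 21 arrays through 1 of their probes or more.

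A growing oocyte stores the proteins and messenger RNAs that carry the embryo through its first divisions, while it signals to the granulosa cells of its follicle. Zp2 and Zp3 encode glycoproteins of the zona pellucida, the coat around the egg, and Gdf9 encodes a secreted ligand of the TGF-beta family that acts on granulosa cells. Nobox is a homeobox transcription factor of the early oocyte. Padi6, Nlrp14 and Dppa3 encode proteins that the egg hands on to the embryo: Padi6 is needed for the cytoplasmic lattices, Nlrp14 belongs to the NLR family, and Dppa3 protects maternal DNA methylation. Btg4 brings the CCR4-NOT deadenylase to maternal messenger RNAs, Kpna2 is an importin alpha that carries proteins into the nucleus, and Rnf114 is a RING ubiquitin ligase. Kpna2 and Rnf114 are not restricted to germ cells.

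Gene expression was measured on 21 two-colour arrays, each of which set total RNA of 1 whole mouse tissue against another RNA. In 4 arrays wild-type ovary was compared with wild-type testis, in 5 wild-type ovary with a commercial universal mouse reference RNA, in 4 wild-type testis with the same reference RNA, in 4 wild-type testis of 15 day mice with wild-type adult testis, and in 4 testis of Spo11 knockout mice with wild-type testis. Spo11 makes the DNA breaks that start meiotic recombination, and no probe carries its name in the annotation, so the knockout was not checked on the targeted gene here. The labels state neither strain, nor age beyond 15 day and adult, nor the number of animals or extracts, so the p-values rest on the spread over arrays, part or all of which may be technical. Whole organs were used, so fewer cells of a type and less RNA per cell cannot be told apart.

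Each value is a log2 ratio on 1 array, set to a median of 0 over the array's probes, and a ratio gives no level, so probes cannot be ranked by abundance. Between 6452 and 14012 probes had a value on an array, with the lowest number on the first of the ovary against testis arrays. Within every comparison both channel orders were used, and 22 pairs of arrays of opposite order correlated at r between 0.471 and 0.925 over all probes, against 0.582 to 0.9 for 12 pairs of the same order. The deposited values thus already ran 1 way within each comparison. The source named first here is the likely numerator, read from genes outside the 10. Of 4 tested spermatid genes, Tekt2, Rsph1 and Cox6b2 were lower in ovary than in testis, lower at 15 day and lower in the knockout (log2 ratios in ovary against testis -4.68, -4.3 and -4.42), while Oaz3 was higher in ovary (0.79). Of 8 tested granulosa, theca and luteal genes, Inha, Cyp11a1, Wnt4, Star, Ptch1 and Ccnd2 were higher in ovary (1.6 to 2.85) and Amhr2 was lower (-1.1), with Cyp17a1 at -0.75 and an adjusted p of 0.0818. In testis against reference 3 of the 4 spermatid genes were higher and 1 was lower (median 5.35). In ovary against reference 6 of the 8 granulosa, theca and luteal genes were higher and 0 lower (median 1.77). If the direction were the other way in a comparison, every sign given for it would turn.

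RefSeq promoter sequences (build GRCm38.p6) were at hand for 6 of the genes in 7 windows. The 250 bases before the start are shown for Zp3 and Padi6, whose probes were higher in ovary than in testis, for Btg4, whose probes disagreed, and for Kpna2, whose probes were lower in ovary. Capitals mark CANNTG, the E box, the kind of site that the oocyte factor FIGLA binds. Each is written 5′ to 3′ along the gene, and the windows lie at chr5:135979855-135980104 on the plus strand (Zp3), chr4:140742644-140742893 on the minus strand (Padi6), chr9:51115751-51116000 on the plus strand (Btg4) and chr11:106999526-106999775 on the minus strand (Kpna2).
Zp3: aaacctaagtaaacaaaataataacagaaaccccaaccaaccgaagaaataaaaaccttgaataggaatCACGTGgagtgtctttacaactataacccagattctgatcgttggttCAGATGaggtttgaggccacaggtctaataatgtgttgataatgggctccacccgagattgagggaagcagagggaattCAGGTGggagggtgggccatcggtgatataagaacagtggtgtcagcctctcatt
Padi6: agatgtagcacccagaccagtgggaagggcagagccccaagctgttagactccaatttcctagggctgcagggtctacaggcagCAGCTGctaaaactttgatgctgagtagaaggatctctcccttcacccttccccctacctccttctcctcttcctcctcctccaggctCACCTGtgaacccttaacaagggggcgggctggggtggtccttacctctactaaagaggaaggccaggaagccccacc
Btg4: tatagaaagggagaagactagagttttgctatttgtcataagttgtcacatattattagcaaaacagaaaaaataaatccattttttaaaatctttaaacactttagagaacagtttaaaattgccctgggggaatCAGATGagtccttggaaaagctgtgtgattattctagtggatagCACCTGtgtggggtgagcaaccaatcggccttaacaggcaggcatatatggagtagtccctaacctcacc
Kpna2: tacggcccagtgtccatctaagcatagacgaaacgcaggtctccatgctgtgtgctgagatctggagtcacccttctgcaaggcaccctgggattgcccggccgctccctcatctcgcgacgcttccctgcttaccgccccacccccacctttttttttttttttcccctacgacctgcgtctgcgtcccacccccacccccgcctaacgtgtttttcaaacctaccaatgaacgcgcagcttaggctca
The Zp3 window held 3 E boxes: CACGTG begins 181 bases before the start, CAGATG begins at 134 and CAGGTG at 55. The Padi6 window held CAGCTG at 166 bases with CACCTG at 78, the Btg4 window held CAGATG at 114 bases with CACCTG at 70, and the Kpna2 window held none. The Btg4 window lies inside the span of the gene (chr9:51102147-51119924), whereas the Zp3, Padi6 and Kpna2 windows border the spans of theirs. Nobox and Rnf114, neither of them called in ovary against testis, also had windows. The Nobox window and 1 of the Rnf114 windows held 2 E boxes each. In all, 5 of the 7 windows held CANNTG, against 66.2% of 32851 windows of the same length in the whole table. The sites NOBOX is known to bind were searched on both strands as well. TAATTG was in 0 of the 7 windows, against 7.17% of all windows, and the form TAATTA likewise in 0, against 4.84%. Nlrp14, Dppa3, Zp2 and Gdf9 had no window in the table. These are matches of letters only. The windows shown were picked for their ratios, and whether the matches go with the ratios was not tested.

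The first comparison asked how the genes differ between whole ovary and whole testis on the same array. Of 16 probes tested, 7 passed an adjusted p of 0.05, against 48.5% of the 13566 probes tested in all. Zp2, Zp3, Gdf9 and Padi6 had a probe higher in ovary (4 probes, where 22.5% of all probes were higher), and Kpna2 and Btg4 had probes lower in ovary (3 probes, where 25.9% were lower). The median over the 16 probes was 0.32, against 0.01 over all probes, and the share called was near that of the array as a whole. With all arrays scaled to 1 spread, 4 probes passed, and the calls for Zp3 (1.57), Zp2 (0.64) and Btg4 (-0.66) ended.

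**Figure D1:**
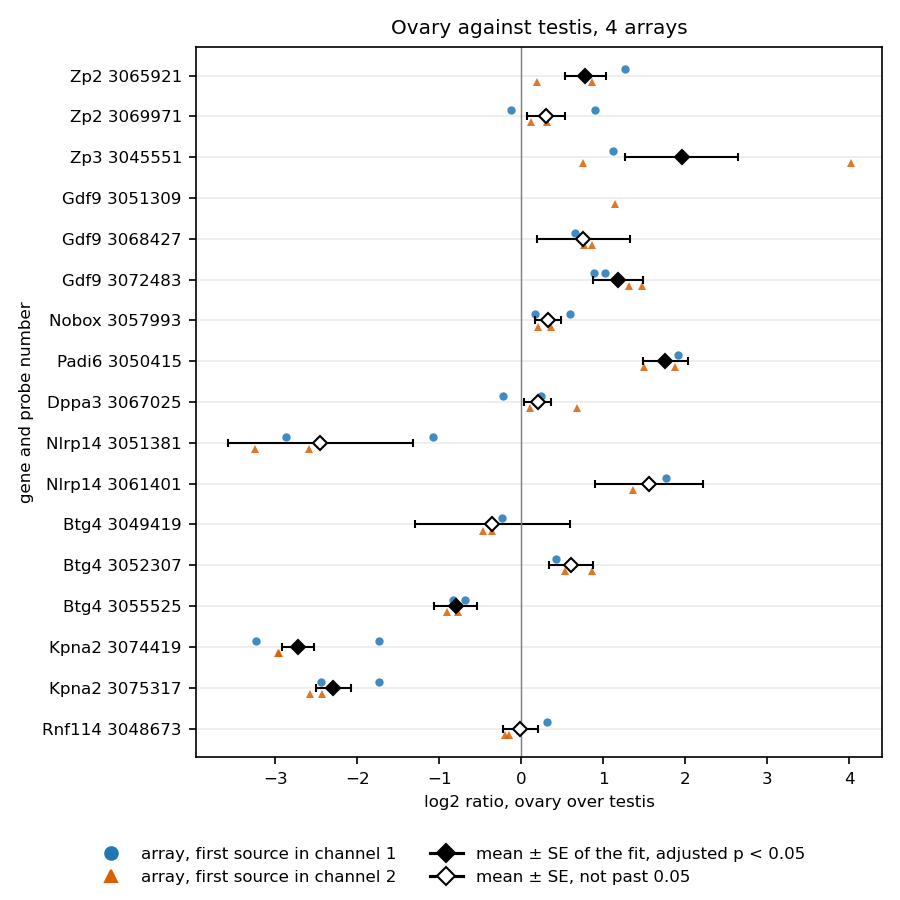
Log2 ratio of ovary over testis (horizontal axis) for the 17 probes of the 10 oocyte genes (vertical axis, gene and probe number); points are arrays, coloured by channel order, and diamonds are the fitted mean ± SE, filled where the adjusted p is under 0.05. Both Kpna2 probes lie below -1.7 on all 4 arrays, Padi6 lies between 1.5 and 1.91, and the Zp3 mean is drawn out by 1 array at 4.02.

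Among the zona pellucida genes, the Zp3 probe stood at 1.12, 4.02 and 0.75 on the 3 arrays that measured it. All 3 values were above 0, but 1 lay far from the other two. The mean was 1.96 ± 0.69 (SE, n = 3), 3.9-fold higher in ovary (adjusted p = 0.0282), and without replicate 3, the array at 4.02, it was 0.94 and did not pass. Zp2 probe 3065921 read 1.27, 0.19 and 0.87, a mean of 0.78 ± 0.25 (SE, n = 3; adjusted p = 0.0228), and the call ended without replicate 2 (0.53) or replicate 4 (0.73). The other Zp2 probe, 3069971, read 0.9, -0.12, 0.32 and 0.12, with a mean of 0.3 ± 0.23 (SE, n = 4; adjusted p = 0.289) and a 95% interval from -0.18 to 0.79. The 100 probes nearest to it in probe number had medians between -0.78 and -0.29 on these arrays, and relative to them its ratio was 0.73 (adjusted p = 0.0121). Centring on neighbours, here and below, was added after seeing the data. Whether probe number follows position on the array is not given.

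Gdf9 probe 3072483 was higher in ovary on all 4 arrays, at 1.02, 0.89, 1.32 and 1.47. The mean was 1.18 ± 0.3 (SE, n = 4), 2.26-fold (adjusted p = 0.00326). Probe 3068427 of the same gene stood at 0.66, 0.77 and 0.86, all above 0, with a mean of 0.76 ± 0.57 (SE, n = 3; adjusted p = 0.279). Its SE was taken from the spread of that probe over all 5 comparisons, and on the ovary against testis arrays alone the same mean had an adjusted p of 0.0192. The third Gdf9 probe, 3051309, had a value on 1 array, 1.15, and no test. Nobox, the transcription factor, read 0.17, 0.59, 0.21 and 0.36, above 0 on every array but small, with a mean of 0.33 ± 0.16 (SE, n = 4; adjusted p = 0.094).

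Padi6 was higher in ovary on each array that measured it, at 1.91, 1.5 and 1.88. Its mean of 1.76 ± 0.27 (SE, n = 3) is a 3.39-fold higher ratio in ovary (adjusted p = 3.97e-05), and it passed without any single array (1.69 to 1.9). Dppa3 read -0.22, 0.24, 0.68 and 0.11, on both sides of 0, with a mean of 0.2 ± 0.16 (SE, n = 4; adjusted p = 0.321).

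The 2 probes of Nlrp14 pointed in opposite directions. Probe 3051381 read -1.08, -2.87, -3.25 and -2.59, below 0 on all 4 arrays, with a mean of -2.45 ± 1.13 (SE, n = 4; adjusted p = 0.0811). With these 4 arrays fitted alone the same mean passed (adjusted p = 0.00187), since the probe varied far more in the comparisons with reference RNA and with the knockout. Probe 3061401 read 1.77 and 1.36 on the 2 arrays with a value, a mean of 1.56 ± 0.66 (SE, n = 2; adjusted p = 0.089). It too passed with these arrays fitted alone (adjusted p = 0.00816), and with channel order as a term (adjusted p = 0.0309). A direction for Nlrp14 therefore depends on the probe. The Btg4 probes were divided too. Probe 3055525 read -0.69, -0.83, -0.9 and -0.77, a mean of -0.8 ± 0.26 (SE, n = 4), 1.74-fold lower in ovary (adjusted p = 0.0159), a call that ended without replicate 3 (-0.76). Probe 3052307 read 0.42, 0.54 and 0.86, a mean of 0.61 ± 0.27 (SE, n = 3; adjusted p = 0.069, and 0.0486 with these arrays fitted alone). Probe 3049419 read -0.23, -0.36 and -0.46, a mean of -0.35 ± 0.95 (SE, n = 3; adjusted p = 0.785).

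Kpna2 showed the lowest ratios of the 10 genes that passed the test. Probe 3074419 read -1.73, -3.23, -2.95 and -2.96, and probe 3075317 read -1.73, -2.44, -2.57 and -2.43. On both probes replicate 1, the array with the fewest values, was nearest to 0. The means were -2.72 ± 0.2 (6.58-fold lower in ovary, adjusted p = 3.11e-09) and -2.29 ± 0.21 (4.9-fold lower, adjusted p = 4.69e-08; SE, n = 4 each). The neighbours of probe 3075317 in probe number were also low on these arrays (medians between -0.65 and -0.48), and relative to them it stood at -1.73 (adjusted p = 1.97e-08). Rnf114 read 0.31, -0.2 and -0.15, a mean of -0.01 ± 0.21 (SE, n = 3; adjusted p = 0.963), with an interval from -0.46 to 0.44.

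The arrays with reference RNA asked the same question on other arrays, since ovary and testis were each set against 1 common RNA. In ovary against reference, 10 of 16 probes passed, 8 higher and 2 lower, against 19.6% of 13448 probes (9.82% higher and 9.83% lower). The 8 higher probes belonged to Zp2, Zp3, Gdf9, Padi6, Nlrp14 and Btg4, and the 2 lower ones were the Kpna2 probes. In testis against reference, 6 of 14 probes passed, 4 higher and 2 lower, against 49.5% of 13364 probes (25.8% higher and 23.7% lower). Kpna2, Btg4 probe 3055525 and Nlrp14 probe 3051381 were higher in testis than in the reference, and Padi6 and Nobox were lower. The calls for Padi6, Nobox and Nlrp14 ended both with these 4 arrays fitted alone (adjusted p = 0.0549, 0.144 and 0.086) and with all arrays scaled to 1 spread (0.142, 0.108 and 0.0735). The median over the tested probes was 1 in ovary against reference and 0.29 in testis against reference, against 0.01 and 0 over all probes.

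**Figure D2:**
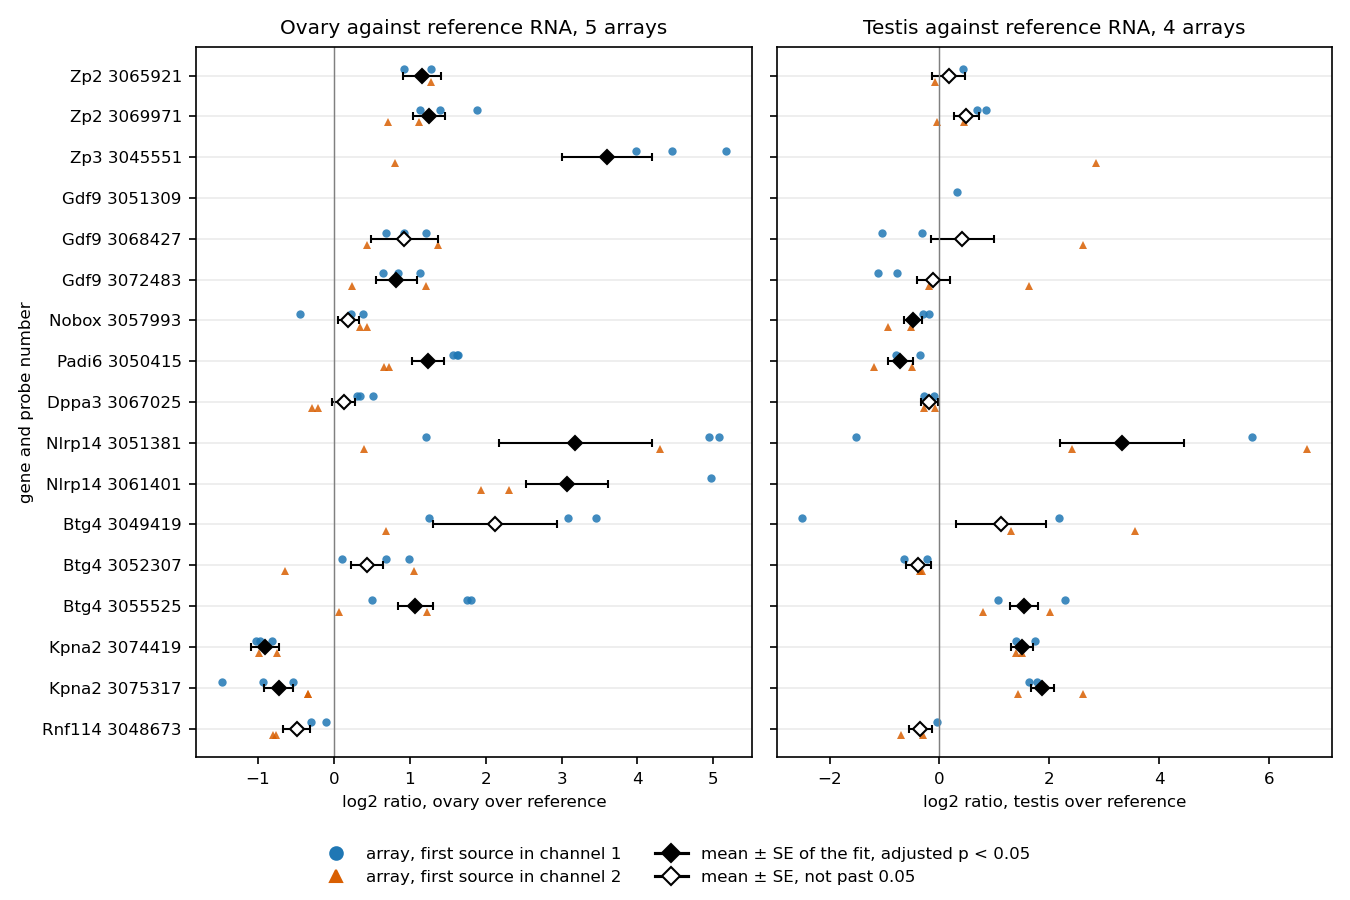
Log2 ratios of ovary over reference RNA (left, 5 arrays) and testis over reference RNA (right, 4 arrays) for the 17 probes; points are arrays by channel order and diamonds are the fitted mean ± SE, filled where the adjusted p is under 0.05. Zp3 reaches 5.17 over the reference in ovary, Kpna2 lies below 0 on the left and above 0 on the right, and Nlrp14 probe 3051381 spans -1.51 to 6.69 on the right.

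Zp3 read 5.17, 0.8, 3.98 and 4.46 in ovary over reference, above 0 on every array, 3 of them above 3.9 and 1 far lower. The mean was 3.6 ± 0.59 (SE, n = 4), 12.1-fold (adjusted p = 5.38e-04). In testis over reference it had a value on 1 array, 2.86, so that no ovary to testis ratio through the reference could be tested for it. Zp2 probe 3069971 read 1.89, 0.71, 1.4, 1.12 and 1.14, a mean of 1.25 ± 0.21 (SE, n = 5; adjusted p = 1.77e-04), and probe 3065921 read 0.92, 1.28 and 1.28, a mean of 1.16 ± 0.25 (SE, n = 3; adjusted p = 0.0069). Both Zp2 probes were thus more than 2-fold higher in ovary than in the reference (2.38-fold and 2.23-fold). In testis over reference they stood at 0.49 ± 0.23 (SE, n = 4; adjusted p = 0.087; 0.66 and 0.0439 without replicate 4) and 0.17 ± 0.3 (SE, n = 2; adjusted p = 0.658).

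Gdf9 probe 3072483 read 1.14, 0.24, 0.65, 1.21 and 0.85 in ovary over reference, all above 0. Its mean of 0.82 ± 0.27 (SE, n = 5; adjusted p = 0.0376) did not pass without replicate 1, 3, 4 or 5 (0.74, 0.86, 0.72 and 0.81). With the Gdf9 probes averaged, ovary over reference stood at 0.87 and did not pass (adjusted p = 0.065). In testis over reference probe 3072483 read -1.12, 1.63, -0.77 and -0.18. On the array at 1.63, replicate 2, the median of its 100 neighbours was 2.57, and relative to the neighbours the mean over the 4 arrays was -0.72 (adjusted p = 0.00224) in place of -0.11 ± 0.3 (adjusted p = 0.785). Without replicate 2 the mean was -0.69 (adjusted p = 0.0235). Probe 3068427 was high on that array as well, at 2.61 against -1.05 and -0.31 on the other two. In ovary over reference it read 0.93, 0.44, 0.69, 1.37 and 1.21, above 0 on all 5 arrays. That mean of 0.93 ± 0.44 (SE, n = 5; adjusted p = 0.157) passed with those arrays fitted alone (adjusted p = 0.0062) and with all arrays scaled to 1 spread (1.38, adjusted p = 0.0102). Nobox read 0.38, 0.44, -0.45, 0.35 and 0.23 in ovary over reference, with 1 array below 0 (mean 0.19 ± 0.14; adjusted p = 0.404). It read -0.18, -0.93, -0.29 and -0.51 in testis over reference, a mean of -0.48 ± 0.16 (SE, n = 4; adjusted p = 0.0183), a call that ended without replicate 2 (-0.33) or replicate 4 (-0.47) and relative to its neighbours (-0.19, adjusted p = 0.16).

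Padi6 read 1.63, 0.73, 1.57, 0.66 and 1.62 in ovary over reference. The 3 arrays with ovary in channel 1 were the 3 higher ones, and no value of 1 channel order overlapped those of the other. The mean was 1.24 ± 0.21 (SE, n = 5; adjusted p = 3.39e-04). In testis over reference Padi6 read -0.36, -1.19, -0.79 and -0.5, below 0 throughout, a mean of -0.71 ± 0.23 (SE, n = 4; adjusted p = 0.0174) that did not pass without replicate 2 (-0.55) or replicate 3 (-0.68). Dppa3 stood at 0.13 ± 0.15 in ovary (n = 5; adjusted p = 0.591) and -0.18 ± 0.16 in testis (n = 4; adjusted p = 0.364) over reference.

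Nlrp14 probe 3051381 had the widest spread of the 17 probes against the reference. It read 1.21, 0.39, 5.07, 4.29 and 4.94 in ovary and 5.69, 6.69, -1.51 and 2.42 in testis. The low values in both tissues, 1.21 and 0.39 in ovary and -1.51 and 2.42 in testis, came from the same run of array numbers in the titles, the third of 5 runs. The means were 3.18 ± 1.01 (SE, n = 5; adjusted p = 0.0315) and 3.32 ± 1.13 (SE, n = 4; adjusted p = 0.02). Within the third run they were 0.8 in ovary and 0.46 in testis, and within the fifth run the ovary mean was 4.62. The ovary call ended without replicate 3, 4 or 5 (2.71, 2.9 and 2.74), and the testis call without replicate 1 or 2 (2.53 and 2.2). Probe 3061401 read 1.94, 2.31 and 4.97 in ovary, a mean of 3.07 ± 0.54 (SE, n = 3; adjusted p = 0.00619), and had no value in testis against reference, at 15 day or in the knockout.

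Btg4 probe 3055525 was above the reference in both tissues. It read 0.5, 0.07, 1.75, 1.22 and 1.8 in ovary and 2.28, 2.02, 1.07 and 0.8 in testis, where the lower 2 values again came from the third run in each tissue. The means were 1.07 ± 0.23 (SE, n = 5; adjusted p = 0.00242) and 1.54 ± 0.26 (SE, n = 4; adjusted p = 5.64e-05), and within the third run the ovary mean was 0.28. Probe 3049419 read 1.25, 0.69, 3.09 and 3.45 in ovary (mean 2.12 ± 0.82; adjusted p = 0.0876), and the ovary mean passed with those arrays fitted alone (adjusted p = 0.0128) and with all arrays scaled to 1 spread (3.32, adjusted p = 0.00272). In testis it read 2.17, 3.56, -2.5 and 1.3 (mean 1.13 ± 0.82; adjusted p = 0.27). Without replicate 3, the array at -2.5, the testis mean was 2.34 and passed (adjusted p = 0.0165), and without replicate 2 it was 0.32. Probe 3052307 read 0.68, -0.64, 0.99, 1.06 and 0.11 in ovary, above 0 on 4 of 5 arrays (mean 0.44 ± 0.21; adjusted p = 0.156), and passed without replicate 2, the array at -0.64 (0.71, adjusted p = 0.0131). In testis it was below 0 throughout, at -0.64, -0.31, -0.22 and -0.36 (mean -0.38 ± 0.23; adjusted p = 0.181).

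Kpna2 probe 3074419 read -1.03, -0.99, -0.97, -0.75 and -0.81 in ovary over reference and 1.75, 1.4, 1.4 and 1.5 in testis over reference. The 2 tissues lay on opposite sides of the reference with no overlap. The means were -0.91 ± 0.18 (SE, n = 5; adjusted p = 0.00102) and 1.51 ± 0.2 (SE, n = 4; adjusted p = 3.24e-06). Probe 3075317 gave -0.73 ± 0.19 (SE, n = 5; adjusted p = 0.00908; -0.54 and no call without replicate 1) and 1.87 ± 0.21 (SE, n = 4; adjusted p = 4.34e-07). Rnf114 stood below the reference on all arrays with a value, at -0.49 ± 0.18 in ovary (n = 4; adjusted p = 0.0746) and -0.35 ± 0.21 in testis (n = 3; adjusted p = 0.19), and passed in neither.

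Subtracting the testis over reference ratio from the ovary over reference ratio gave a second ovary to testis ratio that shared no array with the direct one. Of 14 probes tested, 5 passed, 3 higher and 2 lower, against 33.2% of 12973 probes (15.8% higher and 17.4% lower). Padi6 stood at 1.95 ± 0.31 (adjusted p = 1.33e-04) beside 1.76 directly, and the Kpna2 probes at -2.42 ± 0.27 and -2.6 ± 0.28 beside -2.72 and -2.29. Nobox passed at 0.67 ± 0.22 (adjusted p = 0.0216; 0.52 and no call without testis replicate 2), and Btg4 probe 3052307 at 0.82 ± 0.31 (adjusted p = 0.0494), a call that ended without any 1 of 8 of the 9 reference arrays (0.67 to 0.91). Gdf9 probe 3072483 (0.93), Zp2 probe 3065921 (0.98) and Zp2 probe 3069971 (0.76) were above 0 and did not pass (adjusted p = 0.0845, 0.0742 and 0.0635). Relative to their neighbours in probe number, a centring added after seeing the data, all 3 passed at 1.35, 1.2 and 0.96 (adjusted p = 2.05e-04, 0.0205 and 0.02). They also passed with all arrays scaled to 1 spread, at 1.43, 1.46 and 1.54 (adjusted p = 0.00321, 0.0148 and 0.00175). With its 2 probes averaged Zp2 passed too (0.87, adjusted p = 0.0213). Without testis replicate 2 Gdf9 probe 3072483 stood at 1.51 (adjusted p = 7.94e-04), and without ovary replicate 2 Zp2 probe 3069971 at 0.9 (adjusted p = 0.0382). Nlrp14 probe 3051381 stood at -0.14 ± 1.52 through the reference beside -2.45 directly, and its interval ran from -3.32 to 3.03. The difference between the direct and the indirect ratio passed for 0 of 14 probes in the limma fit (0 also at an unadjusted p under 0.05), and over the whole array for 0 of 12765 probes, 0%, where 258 had an unadjusted p under 0.05. The difference was between -2.31 and 0.3 over the probes, and the interval for Nlrp14 probe 3051381 was the widest, from -6.27 to 1.66.

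The 2 testis comparisons asked how the genes differ in the young testis, where spermatids have yet to form, and in the testis without Spo11, where meiosis is known to arrest. At 15 day, 7 of 15 probes passed, 1 higher and 6 lower than in adult testis, against 32.9% of 13124 probes (14.1% higher and 18.8% lower). In the knockout, 10 of 14 probes passed, 5 higher and 5 lower than in wild-type testis, against 49.1% of 10069 probes (24.1% higher and 25.1% lower). Kpna2, Nlrp14 probe 3051381, Btg4 probe 3055525 and Zp2 probe 3069971 were lower in both, and Gdf9 probe 3072483 was higher in both. Zp3, Padi6, Dppa3 and Btg4 probe 3052307 passed as higher in the knockout. The medians over the tested probes were -0.07 at 15 day and -0.08 in the knockout, near the 0.02 and 0.01 over all probes.

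**Figure D3:**
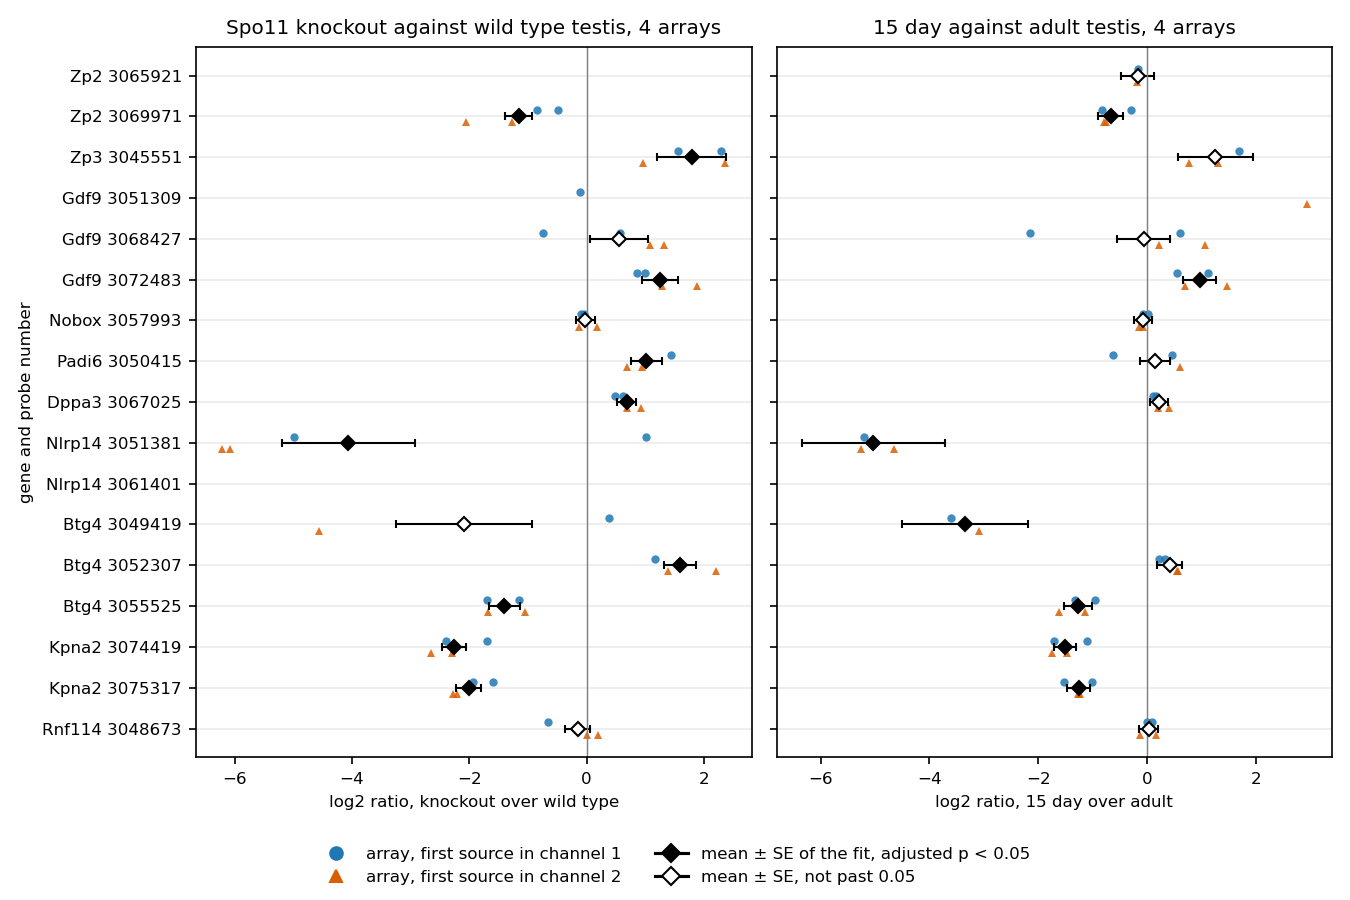
Log2 ratios of Spo11 knockout over wild-type testis (left, 4 arrays) and of 15 day over adult testis (right, 4 arrays) for the 17 probes; points are arrays by channel order and diamonds are the fitted mean ± SE, filled where the adjusted p is under 0.05. Nlrp14 probe 3051381 lies near -5 at 15 day (-5.25 to -4.65), 1 of its 4 knockout arrays lies at 1.02, and both Kpna2 probes lie below 0 on every array of both panels.

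Kpna2 was lower on every array of both comparisons. Probe 3074419 read -1.75, -1.1, -1.71 and -1.47 at 15 day and -2.29, -2.65, -2.39 and -1.7 in the knockout, and only the lowest 15 day values and the highest knockout value overlapped. The means were -1.51 ± 0.2 (adjusted p = 9.94e-06) and -2.26 ± 0.2 (adjusted p = 3.02e-08; SE, n = 4 each), that is 2.84-fold and 4.78-fold lower. Probe 3075317 gave -1.25 ± 0.21 and -2.01 ± 0.21 (adjusted p = 1.40e-04 and 2.70e-07). The knockout ratio minus the 15 day ratio was -0.75 ± 0.28 and -0.76 ± 0.3 for the 2 probes, with unadjusted p of 0.0157 and 0.0203 and adjusted p of 0.231 and 0.257.

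Nlrp14 probe 3051381 had the lowest ratios of all the probes. It read -4.65, -5.2 and -5.25 at 15 day, close together, with a mean of -5.03 ± 1.31 (SE, n = 3), 32.7-fold lower (adjusted p = 0.00618). In the knockout it read -6.22, -6.07, 1.02 and -4.98, where replicate 3 stood apart above 0. The mean was -4.06 ± 1.13 (SE, n = 4; adjusted p = 0.00576), and -5.76 without replicate 3. Btg4 probe 3055525 read -1.14, -0.95, -1.33 and -1.61 at 15 day (mean -1.26 ± 0.26; adjusted p = 9.47e-04) and -1.68, -1.05, -1.7 and -1.15 in the knockout (mean -1.4 ± 0.26; adjusted p = 1.77e-04), with the arrays of the 2 comparisons in the same range. Probe 3049419 read -3.6 and -3.08 at 15 day, a mean of -3.34 ± 1.16 (SE, n = 2; adjusted p = 0.0394; 0.0561 relative to its neighbours), and -4.56 and 0.38 in the knockout, where replicate 3 was again the array above 0 (adjusted p = 0.152). Probe 3052307 of the same gene was above 0 throughout, at 0.57, 0.33, 0.23 and 0.55 at 15 day (mean 0.42 ± 0.23; adjusted p = 0.175, and 0.0291 with those arrays fitted alone) and 2.21, 1.39 and 1.17 in the knockout (mean 1.59 ± 0.27; adjusted p = 8.53e-05). With the 3 probes averaged, Btg4 stood at -0.89 at 15 day (adjusted p = 0.0469) and -0.45 in the knockout (adjusted p = 0.282).

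Zp2 probe 3069971 read -0.78, -0.29, -0.83 and -0.75 at 15 day and -1.27, -2.05, -0.84 and -0.49 in the knockout, below 0 on all 8 arrays. The means were -0.66 ± 0.23 (adjusted p = 0.0332) and -1.16 ± 0.23 (adjusted p = 3.26e-04; SE, n = 4 each). The 15 day call ended without replicate 1, 3 or 4 (-0.62, -0.61 and -0.63). The other Zp2 probe had 2 values at 15 day, -0.16 and -0.19 (adjusted p = 0.692), and none in the knockout. Zp3 was above 0 in both, at 0.77, 1.7 and 1.3 at 15 day (mean 1.26 ± 0.69; adjusted p = 0.176, and 0.011 with the 15 day arrays fitted alone) and 2.36, 0.96, 2.29 and 1.56 in the knockout. The knockout mean of 1.79 ± 0.59 (SE, n = 4) was 3.46-fold (adjusted p = 0.0213) and did not pass without replicate 1 (1.6) or replicate 3 (1.63), or with all arrays scaled to 1 spread (1.44).

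Gdf9 probe 3072483 was above 0 on all 8 arrays. It read 1.48, 1.12, 0.56 and 0.71 at 15 day, the first 2 values from 1 run of array numbers and the others from another, and the mean was 0.97 ± 0.3 (SE, n = 4; adjusted p = 0.0187), with 0.64 and no call within the fifth run and no call without replicate 1 (0.8) or replicate 2 (0.92). In the knockout it read 1.88, 1.28, 0.86 and 0.99, a mean of 1.25 ± 0.3 (SE, n = 4; adjusted p = 0.00185). Relative to its neighbours the means were 0.76 (adjusted p = 0.0025) and 0.96 (adjusted p = 1.77e-04). Gdf9 probe 3068427 crossed 0 in both, at 1.06, -2.14, 0.61 and 0.23 at 15 day and 1.08, 1.31, -0.75 and 0.57 in the knockout, and passed in neither (adjusted p = 0.942 and 0.369). Probe 3051309 had 1 value in each, 2.94 and -0.12. So only 1 of the 3 Gdf9 probes carries the calls. With the 3 probes averaged, Gdf9 stood at 0.59 at 15 day (adjusted p = 0.219) and 0.89 in the knockout (adjusted p = 0.051), and passed in neither.

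Padi6 read -0.62, 0.47 and 0.61 at 15 day (mean 0.15 ± 0.27; adjusted p = 0.694) and 0.68, 0.95 and 1.44 in the knockout, a mean of 1.02 ± 0.27 (SE, n = 3), 2.03-fold (adjusted p = 0.00431). The difference between the 2 effects was 0.87 ± 0.38, with an unadjusted p of 0.0348 and an adjusted p of 0.315. Dppa3 read 0.92, 0.68, 0.49 and 0.62 in the knockout, a mean of 0.68 ± 0.16 (SE, n = 4; adjusted p = 0.00182). Its 100 neighbours in probe number had medians of 0.38 to 0.51 on the same 4 arrays, and relative to them Dppa3 stood at 0.23 (adjusted p = 0.202). At 15 day Dppa3 stood at 0.22 ± 0.16 (adjusted p = 0.315). Nobox was close to 0 in both, at -0.07 ± 0.16 and -0.02 ± 0.16 (adjusted p = 0.778 and 0.922), with all 8 values between -0.15 and 0.18. Rnf114 was at 0.03 ± 0.18 and -0.15 ± 0.21 (adjusted p = 0.915 and 0.577).

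A test of the knockout effect minus the 15 day effect passed for 0 of 14 probes in the limma fit, against 1.23% of 10000 probes. An unadjusted limma p under 0.05 was found for 4 of the 14, against 1385 of the 10000 probes. These 4 were the 2 Kpna2 probes, Padi6 and Btg4 probe 3052307 (1.17 ± 0.35, adjusted p = 0.127). The differences seen between the 2 comparisons are therefore not shown for any of the 10 genes. Lists of cell type genes moved in the same comparisons. The direction of the ratios was itself read from spermatid genes, so the sign of that list is no separate result. In the knockout, 3 of 4 spermatid genes and 6 of 10 spermatocyte genes were lower (medians -3.03 and -1.05), while 8 of 9 Sertoli genes, 4 of 5 Leydig genes, 6 of 9 stromal genes, 4 of 4 macrophage genes and 2 of 3 spermatogonial genes were higher (medians 1.77, 1.93, 1.45, 1.49 and 1.22), against 27.7% lower, 24.5% higher and a median of -0.03 over 5635 genes. The stromal genes Lum (-1.16 ± 0.37) and Pdgfra (-1.34 ± 0.32) were lower there. At 15 day, 3 of 4 spermatid genes and 6 of 11 spermatocyte genes were lower (medians -1.89 and -0.56), and 4 of 9 Sertoli genes, 6 of 9 stromal genes, 2 of 4 macrophage genes and 3 of 4 spermatogonial genes were higher (medians 0.66, 1.77, 0.67 and 1.16), against 22.4% lower and 15.4% higher over all genes. There the spermatocyte genes Mlh3 (1.73 ± 0.32) and Sycp1 (0.95 ± 0.21) were higher, the stromal gene Pdgfra was lower (-1.05 ± 0.32), and 1 of 5 Leydig genes was lower (median -1.48). Their part in the ratios of the oocyte genes was not tested.

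Probes of 1 gene were set against each other over the 21 arrays. The Kpna2 probes had the same sign on 21 of 21 arrays, with r = 0.97 and a median distance of 0.37. Gdf9 probes 3068427 and 3072483 had the same sign on 17 of 19 arrays (r = 0.53), and the Zp2 probes on 8 of 10 (r = 0.61). Btg4 probes 3049419 and 3055525 had the same sign on 13 of 15 arrays (r = 0.74), whereas probe 3052307 had the same sign as probe 3055525 on 4 of 19 (r = -0.52). The Nlrp14 probes shared 5 arrays and the sign on 3 of them. These correlations mix 5 comparisons and are descriptions, and the probe sequences were not used here, so which transcript each probe reads was not tested.

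**Figure D4:**
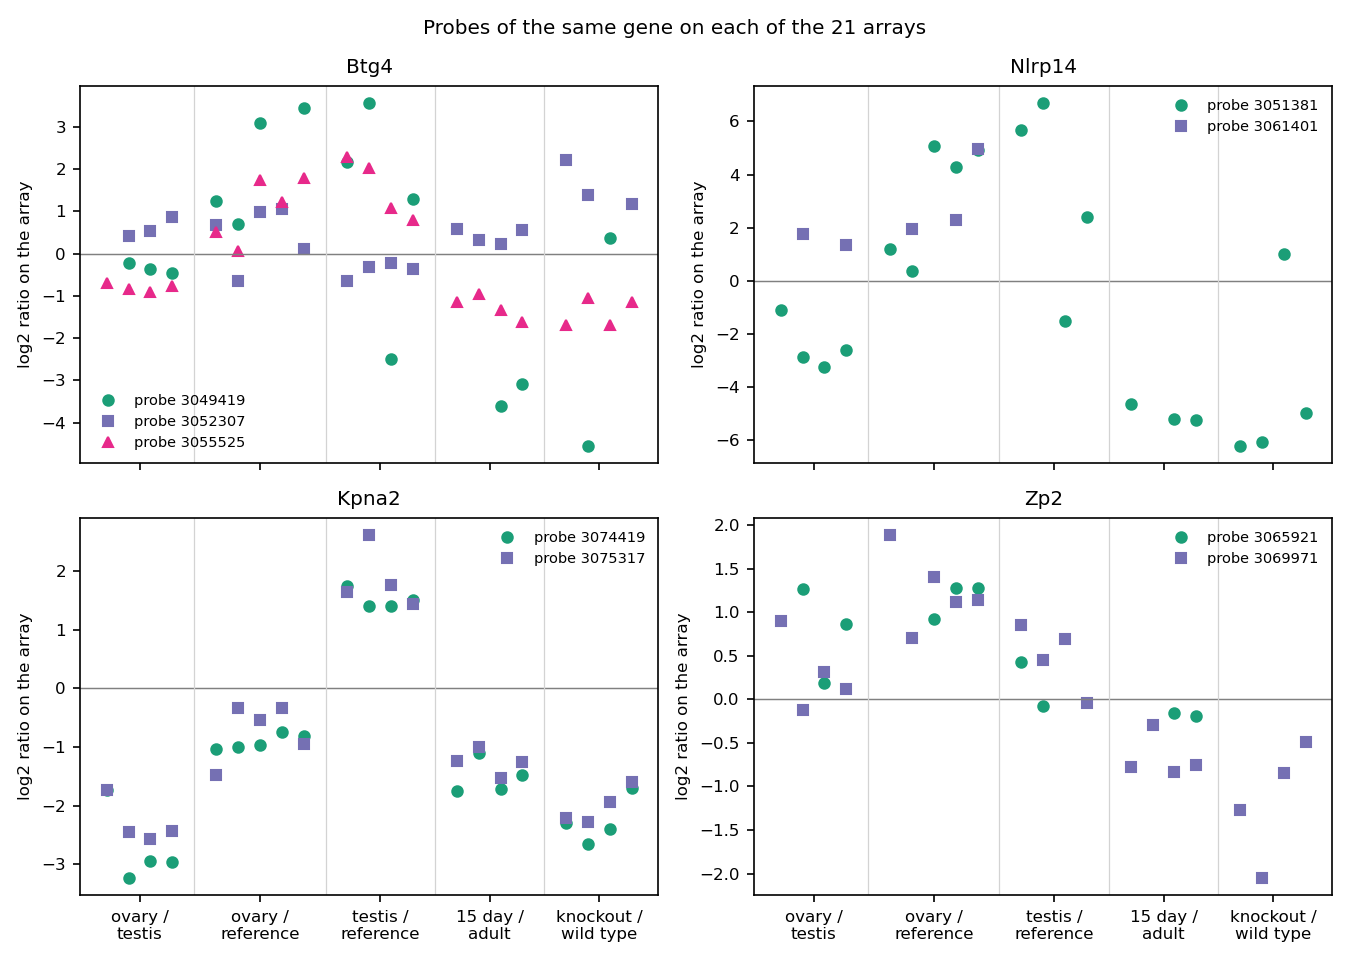
Log2 ratio (vertical axis) of each probe of Btg4, Nlrp14, Kpna2 and Zp2 on each of the 21 arrays, in order of comparison (horizontal axis); each point is 1 probe on 1 array. The Kpna2 probes move together on all 21 arrays, Btg4 probe 3052307 has the opposite sign to probe 3055525 on most arrays, and Nlrp14 probe 3061401 has 5 values.

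The probes near a member in probe number, which are mostly of other genes, also stood away from the array median in places. Over the 50 probes before and the 50 after, the mean of the neighbours' medians reached 0.62 for Kpna2 probe 3075317 in testis against reference, 0.61 for Gdf9 probe 3072483 there, and -0.56 for Kpna2 probe 3075317 in ovary against testis. The neighbours did not always share the member's direction. In the knockout their mean was -0.42 for Zp3, itself at 1.79, and 0.4 for Rnf114, itself at -0.15. Subtracting that local median in place of the array median left both Kpna2 probes, Padi6, Zp3, Nlrp14 probe 3051381 and Btg4 probe 3055525 called where they had been called in the 5 comparisons. It ended the calls for Dppa3 in the knockout, for Nobox in testis against reference and for Btg4 probe 3049419 at 15 day. It brought calls for Rnf114, at -0.59 in ovary against reference (adjusted p = 0.00935) and -0.56 in the knockout (adjusted p = 0.0134), for Nobox in ovary against reference (0.41, adjusted p = 0.00457), for Zp2 probe 3069971 in ovary against testis and for Gdf9 probe 3072483 in testis against reference.

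**Figure D5:**
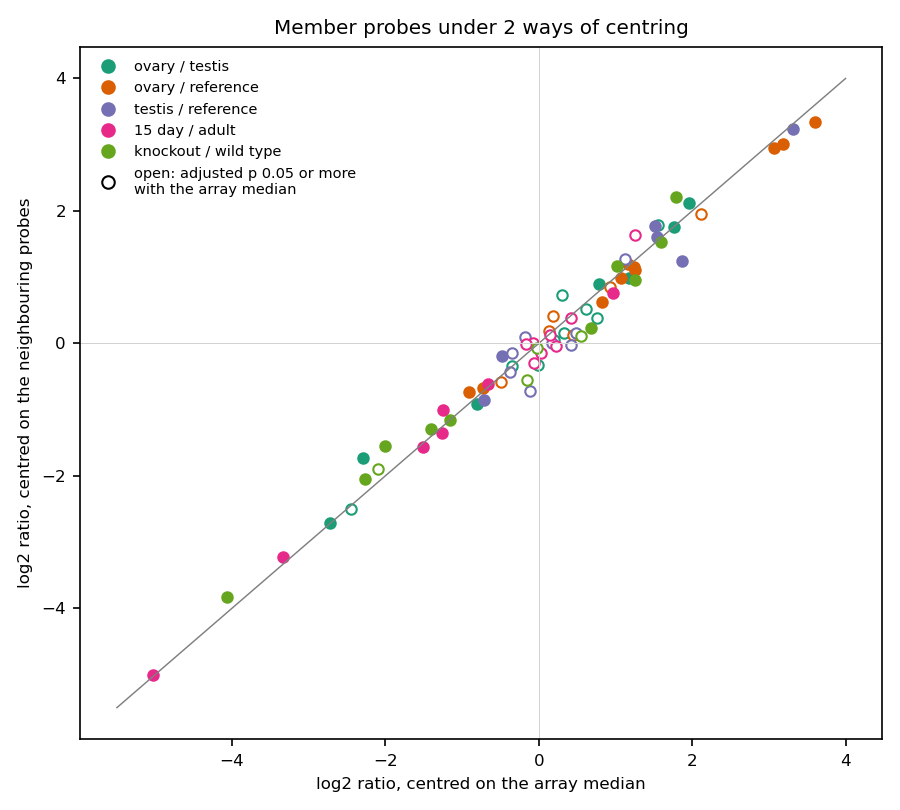
Fitted log2 ratio of each tested probe of the 10 genes in the 5 comparisons, centred on the array median (horizontal axis) and on its 100 neighbours in probe number (vertical axis); the line marks equal values and open points had an adjusted p of 0.05 or more with the array median. Most points lie near the line, and Dppa3 in the knockout (0.68 against 0.23) and Kpna2 probe 3075317 in testis over reference (1.87 against 1.25) lie below it.

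The genes whose ratios were nearest to a member over at least 15 shared arrays were named by the smallest root mean square difference. For Kpna2 these were Pbk (0.353 for probe 3074419, 21 arrays) and Gtf2f1 (0.33 for probe 3075317, 21 arrays). For Padi6 the nearest was Plat (0.418, 16 arrays). For Zp3 they were Acsbg1 and Inha, a gene of the granulosa and Sertoli lists (0.983 and 0.995, 15 arrays each). For Gdf9 probe 3072483 it was Fndc5 (0.265, 21 arrays), whose probe 3072493 lies close to it in number. For Nlrp14 probe 3051381 the third nearest of all genes was Btg4 probe 3049419 (2.01, 15 arrays), after Enkur (1.89) and D19Ertd652e (1.93). Stfa1 was nearest to Btg4 probe 3052307 (0.298) and Hadha to Btg4 probe 3055525 (0.49), Fam8a1 to Dppa3 (0.197), Rps15 to Nobox (0.246), Emb to Zp2 probe 3069971 (0.501) and Zfp330 to Rnf114 (0.239). The remaining probes had Zfp57 for Btg4 probe 3049419 (1.35) and Abhd14b for Gdf9 probe 3068427 (0.461), and 3 probes had too few arrays.

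A list of 62 other genes known from oocytes was set beside the 10. Like the 10, these genes were chosen with earlier results of these data known, so their counts are a description only. Averaged per gene, 36 were tested in ovary against testis, 20 higher and 6 lower in ovary, with a median of 0.95, against 22.4% higher, 30.3% lower and a median of -0.07 over 6832 genes. The higher ones were Obox5 (4.44 ± 0.41), Omt2b, Oosp1 (2.47 ± 0.36), Oosp3, Bcl2l10, Zar1 (2.09 ± 0.38), Ooep, H1f8, Bmp15 (1.72 ± 0.31), Nlrp5 (1.65 ± 0.41), Oog1, Rfpl4, Tle6 (1.44 ± 0.14), Nlrp4b, Astl, Gja4, Nlrp9b, Spin1, Mos and Wee2. Bmp15 is the close relative and partner of Gdf9, and Nlrp5, Ooep and Tle6 are subunits of the subcortical maternal complex of the egg. The 6 lower ones were Gtsf1 (-4.08 ± 0.35), Dnmt3l (-2.48 ± 0.32), Dazl (-2.18 ± 0.49), Ddx4 (-2.03 ± 0.32), Kit and Sohlh1. Leaving out 1 array moved the counts to between 15 and 21 higher and between 5 and 6 lower, and the calls for Kit, Mos, Wee2, Nlrp9b, H1f8 and Omt2b each ended without 1 array or another. Without replicate 2 or replicate 4 only 32 genes were tested, and Nlrp4b and Oosp3 had no test there. Scaled to 1 spread, 16 were higher and 6 lower, and the calls for Kit, Mos, Nlrp5, Omt2b and Wee2 ended. Cell type lists moved in ovary against testis too: 6 of 9 stromal genes were higher and 1 lower (median 2.39), 4 of 5 Leydig genes higher and 0 lower (1.89), 3 of 4 macrophage genes higher and 0 lower (1.15), 5 of 9 Sertoli genes higher and 2 lower (0.6), 8 of 11 spermatocyte genes lower and 1 higher (-2.79), and 2 of 4 spermatogonial genes lower and 1 higher (-0.52). The lists overlap, so the Leydig and Sertoli lists are not particular to testis cells. Star, Cyp11a1 and Cyp17a1 are on the Leydig list and on the granulosa, theca and luteal list. Inha and Amhr2 are on the latter and on the Sertoli list, and Kit is on the oocyte and spermatogonial lists. The direction of ovary against testis was itself read in part from the granulosa, theca and luteal list. The signs of Star, Cyp11a1, Cyp17a1, Inha and Amhr2 are therefore no separate result for the Leydig and Sertoli lists. The part of these cell types in the ratios of the oocyte genes was not tested there either. In ovary against reference 18 of 32 were higher and 0 lower (median 1.21; 10.7% and 11.4% of all genes), and in testis against reference 11 of 32 were higher and 4 lower (median 0.3; 30.3% and 24.2% of all genes). The latter 11 included Gtsf1, Ddx4, Dazl and Dnmt3l, and the 4 lower were Tle6, Gja4, Oosp1 and Bmp15. In the knockout 3 of 21 were higher (Nlrp9c, Kpna7 and Spin1) and 3 lower (Pde3a, Gtsf1 and Ddx4), where 24.5% and 27.7% of all genes were. At 15 day 4 of 28 were higher (Cpeb1, Spin1, Wee2 and Tle6) and 3 lower (Gtsf1, Mos and Ddx4), against 15.4% and 22.4% of all genes.

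Relatives and partners of single members were listed as well, again per gene. Their counts stand against the shares of all genes called: 22.4% higher and 30.3% lower in ovary against testis, 15.4% and 22.4% at 15 day, and 24.5% and 27.7% in the knockout. Of 15 tested importins and related carriers, 7 were lower in ovary than in testis, Ipo5 (-2.93 ± 0.22), Ipo4, Ipo13, Kpna1, Tnpo3, Kpna6 and Kpnb1, and 2 were higher, Ipo7 (1.04 ± 0.23) and Ipo9. In the knockout 6 of 14 importins were lower and 2 higher, and at 15 day 6 of 15 were lower and 3 higher, with Ipo5, Ipo4, Ipo13 and Kpna6 lower in both, as the Kpna2 probes were. Of 12 genes of the BTG family and the CCR4-NOT complex, which Btg4 serves, 2 were higher in ovary (Cnot6 and Cnot9) and 2 lower (Btg1 at -1.27 ± 0.23 and Cnot1). Btg1 was also lower at 15 day (-2.18 ± 0.23) and in the knockout (-2.11 ± 0.23). Of 8 receptors, SMADs and granulosa targets of Gdf9 and Bmp15, Smad4 (0.97 ± 0.25) and Tgfbr1 (1.09 ± 0.4) were higher in ovary and 0 lower, with 0 of 6 called in the knockout. Rnf166, the 1 tested relative of Rnf114, was lower in ovary (-2.98 ± 0.33), at 15 day (-1.16 ± 0.33) and in the knockout (-1.62 ± 0.33). The 1 tested peptidylarginine deiminase other than Padi6 stood at 0.19 in ovary against testis and did not pass.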

How the data were processed

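The values the authors deposited, 1 per probe and array, were read as log2 ratios from their range and centring alone. Scanning, background correction, normalization and the numerator are not given in the sources used here. Of 21 arrays, 15 had a deposited median of 0, and the other 6 a mean near 0 and a median of up to 0.13. The annotation gave 1 gene symbol for 9604 of 16128 probes, several for 213 and none for 6311. Each array was centred on its median, and nothing was turned.

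One limma model (version 3.58.1, R 4.3.3) over all 21 arrays gave 5 means, with probes measured on at least 2 arrays of a comparison tested and p-values adjusted by Benjamini-Hochberg over all probes tested there (threshold 0.05). A call is an adjusted p under 0.05. Errors are SEs of that fit. The script was tested on simulated data. Replicate numbers follow the order of deposit and pair nothing. Array numbers in the titles fall into 5 runs, whose meaning the labels do not give. Named were all member probes, the genes nearest to each in ratio, and other listed oocyte genes that passed in ovary against testis. The 10 genes and all gene lists were chosen with earlier results of these data known. Precision is limited by the number of arrays. Alternatives were the centring, scaling, filters, fit, channel order, run, variance model, gene means and leaving out arrays; centring on the 50 probes on each side in probe number was added after seeing the data.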

Additional observations from a re-analysis of the deposited data

Results flagged for a closer look

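Of 53 groups of 4 or 5 arrays with values of a member probe, 3 had 1 array far from the rest, and chance alone gives about 1 in 20. Nobox stood at -0.45 on replicate 3 of ovary against reference, where the other arrays lay between 0.23 and 0.44. Zp2 probe 3069971 stood at -0.29 on replicate 2 of 15 day against adult testis, where the others lay between -0.83 and -0.75. Kpna2 probe 3075317 stood at -1.73 on replicate 1 of ovary against testis, where the others lay between -2.57 and -2.43; this array had the fewest values of all 21.

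By the test of the difference itself, the ratios to reference RNA differed between ovary and testis for 5 of 14 probes, against 33.2% of 12973 probes. As ovary minus testis in log2 units, Padi6 differed by 1.95, Nobox by 0.67 and Btg4 probe 3052307 by 0.82. The Kpna2 probes differed by -2.42 (3074419) and -2.6 (3075317). The Nobox call ended without testis replicate 2 (0.52), and the Btg4 call under 11 of 18 alternatives.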

How the results depend on the processing

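The alternatives were followed for 93 ratios of member probes. These were all tested ones in the 5 comparisons and through the reference, and the 4 of knockout minus 15 day with an unadjusted limma p under 0.05. Direct minus indirect was left out. Of the 93, 45 passed the threshold, and 19 of these did so under every alternative in which they could be tested. Of 1435 alternative values, 1276 kept direction and side of the threshold, 80 lost the call, 39 gained it and 40 changed sign. Of the 45, 1 changed sign: Btg4 probe 3052307 in the knockout, -0.45 with the Btg4 probes averaged. The other changes of sign were in ratios that did not pass. Averaging the probes of a gene gave, for Btg4 probe 3052307, -0.32 in ovary against testis, 0.76 in testis against reference and -0.89 at 15 day, for Btg4 probe 3055525 0.38 through the reference, for Nlrp14 probe 3061401 -1.37 in ovary against testis, for Gdf9 probe 3072483 0.15 in testis against reference and for Gdf9 probe 3068427 0.59 at 15 day. Local centring gave 0.09 and -0.04 for Dppa3 (testis against reference, 15 day), -0.03 for Gdf9 probe 3068427 in testis against reference, and -0.14 and 0.01 at 15 day for Rnf114 and Nobox. Scaling all arrays to 1 spread gave 2.11 and 0.33 through the reference for Nlrp14 probe 3051381 and Btg4 probe 3055525. Nobox in the knockout was 0.07 as deposited. Rnf114 in ovary against testis was 0.02 with channel order as a term and 0.06 within run 4, and at 15 day -0.02 within run 5, where Gdf9 probe 3068427 was 0.42; Btg4 probe 3049419 in testis against reference was -0.6 within run 3.

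Leaving out 1 array moved ratios across 0 for Rnf114 (-0.17 to 0.08 in ovary against testis, -0.01 to 0.09 at 15 day, -0.33 to 0.1 in the knockout, -0.32 to 0.01 through the reference), Gdf9 probe 3068427 (-0.68 to 1.15 in testis against reference, -0.43 to 0.63 at 15 day, -0.22 to 1.61 through the reference), Gdf9 probe 3072483 (-0.69 to 0.23 in testis against reference), Padi6 (-0.08 to 0.54 at 15 day), Nobox (-0.09 to 0.01 in the knockout), and through the reference Btg4 probe 3049419 (-0.22 to 1.8) and Nlrp14 probe 3051381 (-1.75 to 0.98).

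Counts moved by more than 1.5 times as follows. Per gene in place of per probe, with fewer features tested, 3602, 1492, 3681, 2532, 2939 and 2549 were called in ovary against testis, ovary against reference, testis against reference, 15 day, knockout and through the reference, and 6, 3 and 6 members in ovary against reference, 15 day and knockout. Scaled to 1 spread, ovary against reference had 5322 probes called in place of 2642, direct minus indirect 72 in place of 0, and knockout minus 15 day 80 in place of 123, while member probes called were 4 in ovary against testis and 3 in testis against reference. Local centring gave 301 for knockout minus 15 day. Probes with values on 3 arrays in every comparison gave 1672 in ovary against reference, fewer being tested. Testis against reference fitted alone called 3 member probes. Within run 3, ovary against reference called 421 probes and 1 member probe, testis against reference 3812 and 3; within run 4, ovary against testis 4 member probes; within run 5, ovary against reference 1294 and 5; within run 2, 15 day 1292 and 3. Leaving out 1 array gave 2655 to 4045 probes at 15 day in place of 4319, with 2678 without 15 day replicate 3 and 2655 without replicate 4, and 71 to 149 for knockout minus 15 day, with 73, 71 and 79 without 15 day replicates 1, 3 and 4. The cause of these changes was not tested. No paired analysis was possible because replicate numbers are not in the labels. The run of array numbers as a random block had a consensus correlation of -0.011.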
